A study of Homo sapiens with 6 samples.

Results

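The guanylate-binding proteins, or GBPs, are encoded in humans by 7 genes, *GBP1* to *GBP7*, that lie side by side on chromosome 1. Their rows were taken by symbol from the table of normalized counts, which holds 20347 genes, and all 7 were found. The family was picked because *GBP1*, *GBP2* and *GBP3* were lower together after SAMD1 knockout. Their difference between knockout and control is therefore given as a description, with no test, and it supports nothing further.

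RNA was sequenced from PaTu8988t, an established human cell line of pancreatic ductal adenocarcinoma (PDAC). The 3 Control libraries came from replicates of cells that received an unspecific guide RNA together with Cas9. The 3 SAMD1 KO libraries came from clonally independent single clones, made with guides against *SAMD1*, and each is 1 clone under puromycin selection. No treatment with an interferon or another agent is given for either group. SAMD1 is a chromatin protein that binds unmethylated CpG islands and recruits the histone demethylase KDM1A. *SAMD1* itself was present at 2231, 2382 and 2299 normalized counts in the Control libraries and at 874, 1082 and 825 in the SAMD1 KO libraries, with a log2 fold change of -1.32 ± 0.10 (SE, n = 3 and 3, limma adjusted p = 0.000724).

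GBPs are large GTPases of the dynamin superfamily, related to the atlastins that fuse membranes of the endoplasmic reticulum. They are among the most strongly induced genes of the interferon-gamma response, through STAT factors, which bind GAS elements, and through IRF factors, which bind interferon-stimulated response elements (ISRE). In infected cells GBPs assemble on bacteria and on the vacuoles of parasites, and they help caspase-4 to detect bacterial lipopolysaccharide in the cytosol. In epithelial cells they are usually expressed at a low level until an inflammatory signal arrives.

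On the hg38 assembly, with the GENCODE 44 annotation, the 7 genes span 381.482 kb, at chr1:89006679-89388160. Transcribed from the minus strand are, in this order, *GBP3* (chr1:89006679-89022894), *GBP1* (chr1:89051882-89065360), *GBP2* (chr1:89106132-89150456), *GBP7* (chr1:89131742-89176009), *GBP4* (chr1:89181144-89198942) and *GBP5* (chr1:89256189-89272860). *GBP6* (chr1:89364059-89388160) is on the plus strand. *GBP2* and *GBP7* overlap by 18.715 kb on the same strand. Of the 7 genes, 5 were found in the RefSeq promoter table (GRCh38.p14), which gives 250 bases before and 50 bases after the gene start, counted here from the start as base 0. *GBP2* and *GBP5* are named only.

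The following sites are shown because interferon-responsive factors are known to use these sequences. The ISRE was searched on both strands as a pair of GAAA separated by any 2 bases. It was found in the windows of *GBP1*, *GBP3* and *GBP4*, 3 of 5, compared with 3.65% of all 27305 promoter windows. In all 3 genes the match lies on the strand opposite to the gene, so that the capitals read as a pair of TTTC in the direction of the gene. They cover bases -127 to -118 of *GBP1*, 2 to 11 of *GBP3* and -4 to 5 of *GBP4*, counted from the RefSeq start. By the GENCODE bounds, *GBP1* starts at base 89065360 and *GBP3* at base 89022894, and both elements then lie inside the gene. That of *GBP4* spans the start in both annotations. The difference in position between *GBP1* and *GBP3* therefore depends on the annotated start, and nothing is read from it.
GBP1, chr1:89065316-89065345, minus strand: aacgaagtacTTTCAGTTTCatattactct
GBP3, chr1:89022845-89022874, minus strand: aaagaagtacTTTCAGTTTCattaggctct
GBP4, chr1:89198927-89198956, minus strand: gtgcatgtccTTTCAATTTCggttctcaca

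*GBP1* and *GBP3* have the same letters across this element and in the bases just before it. The GAS element was searched as TTCNNNGAA and was found in 1 of 5 windows, that of *GBP3*, at bases -15 to -7, while 7.88% of all promoter windows have it. The AP-1 motif, TGANTCA, was present in the windows of *GBP3* (bases -23 to -17) and *GBP6* (bases -151 to -145), 2 of 5, and in 7.76% of all windows. These positions also count from the RefSeq start, and by the GENCODE start of *GBP3*, at base 89022894, its GAS and AP-1 motifs lie inside the gene. The capitals in the next lines mark the GAS and AP-1 motifs.
GBP3 GAS, chr1:89022863-89022891, minus strand: actgagtcacTTCCTTGAAagaagtactt
GBP3 AP-1, chr1:89022873-89022899, minus strand: ttatggttacTGAGTCActtccttgaa
GBP6 AP-1, chr1:89363898-89363924, plus strand: tcacatcggaTGATTCAggcatggctc

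The GCGC motif has been tied to the CpG islands that SAMD1 binds. It was in none of the 5 windows, although 56.6% of all promoter windows contain it. The windows held 3 CpG dinucleotides in *GBP1*, 0 in *GBP3*, 3 in *GBP4*, 1 in *GBP6* and 0 in *GBP7*, where the median of all windows is 14. Their GC content was between 32% and 43.3%, below the median of 58.3% for all windows. A match in these windows is a match of letters and says nothing on binding in these cells.

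The promoter windows of *GBP1* and *GBP3* resemble each other. When the *GBP1* window was aligned to the windows of all other genes, *GBP3* ranked 1 of 27304, with 74.9% identical bases in 175 aligned columns, and *GBP7* ranked 2, with 60.1% identity. *GBP6* ranked 3045 and *GBP4* 5582. The stretch of this alignment that lies before every annotated start of the genes is shown, since the pair shares it.
GBP1, chr1:89065361-89065458, minus strand: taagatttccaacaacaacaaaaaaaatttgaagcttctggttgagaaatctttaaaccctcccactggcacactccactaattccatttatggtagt
GBP3, chr1:89022895-89022973, minus strand: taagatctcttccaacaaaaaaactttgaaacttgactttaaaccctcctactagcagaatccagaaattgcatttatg

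Library depth was between 35589477 and 45172216 counted reads. Every normalized count returned to a whole number of reads, within 0.01 reads, so that the reads behind each value are known. The labelled cell type was checked with markers. *KRT8* and *KRT18*, keratins of simple epithelia, were at 29200 or more normalized counts in each library. *KRT19*, a keratin of ductal cells, had no reads in any library. The other epithelial and PDAC markers were far lower. Mean levels in Control and SAMD1 KO were 537.3 and 519.8 for *EPCAM* and 189.6 and 224.1 for *MUC1*. They were 30.2 and 84.2 for *KRT7* and 38.3 and 41.5 for *CDH1*. The summed level of this list, mostly *KRT8* and *KRT18*, was 62919.5 to 66125.5 in Control and 67894.9 to 108814 in SAMD1 KO. Of 12 leukocyte markers, 5 were at 0, among them *CD3E*, *CD2*, *MS4A1* and *FCGR3A*. The summed level of the leukocyte list was 369 to 397 normalized counts in Control and 264 to 360 in SAMD1 KO, and its part in the GBP values was not tested. It was mostly the macrophage and lysosome gene *CD68*, named here after its values were seen, with 354, 368 and 355 normalized counts in Control and 305, 242 and 326 in SAMD1 KO. A gene outside the GBP family was called if its log2 fold change exceeded 0.5 in size and its limma p, before adjustment, was under 0.01. Of the marker genes, *KRT18* (log2 fold change 0.52, limma adjusted p = 0.0598), the ductal keratin *KRT7* (1.46, limma adjusted p = 0.00392) and the fibroblast receptor *PDGFRA* (1.90, limma adjusted p = 0.0139) were called higher in SAMD1 KO. The call of *KRT18* was lost without any 1 of the Control libraries and without clone 1 or 2, with a log2 fold change of 0.39 to 0.52. Summed levels ranged from 80.1 to 90.5 in Control and from 36.6 to 87.2 in SAMD1 KO for 6 endothelial markers, and from 575 to 587 and from 492 to 826 for 8 fibroblast markers, of which *DCN* and *LUM* were at 0. In bulk RNA, fewer cells that express a gene and less RNA in each cell cannot be told apart.

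*GBP1*, the founding member of the family and the one that coats cytosolic bacteria, was present at 20.6, 14.7 and 14.9 normalized counts in the Control libraries and at 4.94, 1.73 and 8.10 in the SAMD1 KO libraries. All 3 knockout clones were below all 3 Control libraries. Behind these values are 18, 15 and 13 reads in Control and 5, 2 and 9 reads in SAMD1 KO. They sum to 46 reads (exact 95% Poisson interval 33.7 to 61.4) in Control and 16 reads (9.15 to 26) in SAMD1 KO, and these intervals cover counting error only. The mean was 16.7 ± 3.35 in Control and 4.92 ± 3.18 in SAMD1 KO (SD, n = 3 each), 29.4% of the Control mean, and the fitted log2 difference, on normalized count + 1, was -1.73 ± 0.49 (SE).

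*GBP2*, a prenylated member of the family that joins *GBP1* on bacteria, was at 32.0, 38.2 and 57.3 normalized counts in Control and at 14.8, 18.1 and 12.6 in SAMD1 KO. The groups did not overlap, although the Control libraries were spread widely, from 28 to 50 reads. The mean went from 42.5 ± 13.2 to 15.2 ± 2.79 (SD, n = 3 each), which is 35.8% of the Control mean, with a log2 difference of -1.40 ± 0.29 (SE). In total, 117 reads (interval 96.8 to 140) were counted in Control and 50 reads (37.1 to 65.9) in SAMD1 KO.

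*GBP3* was the most abundant member, with 107.5, 101.8 and 110.0 normalized counts in Control and 63.3, 51.0 and 72.0 in SAMD1 KO. The Control libraries lay close together, and each knockout clone was below them. The means were 106.4 ± 4.22 and 62.1 ± 10.5 (SD, n = 3 each), so SAMD1 KO was at 58.3% of Control, with a log2 difference of -0.78 ± 0.17 (SE). The summed reads were 294 (261 to 330) and 203 (176 to 233).

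*GBP4*, a member without the prenylation signal of *GBP1*, *GBP2* and *GBP5*, did not show this pattern. It was at 10.3, 14.7 and 19.5 normalized counts in Control and at 14.8, 4.32 and 22.5 in SAMD1 KO. The groups overlapped, with the lowest and the highest library both in SAMD1 KO. The means were 14.8 ± 4.59 and 13.9 ± 9.12 (SD, n = 3 each), the summed reads 41 and 45, and the log2 difference -0.29 ± 0.57 (SE). Without clone 2 the difference turned to 0.33.

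*GBP5*, an activator of the NLRP3 inflammasome and an antiviral factor, *GBP6* and *GBP7* had 0 reads in each of the 6 libraries. At this depth, 3 reads, the limit that a count of 0 allows, correspond to 2.59 to 3.44 normalized counts in a library. No difference between the groups was detectable for these 3 genes.

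**Figure D1:**
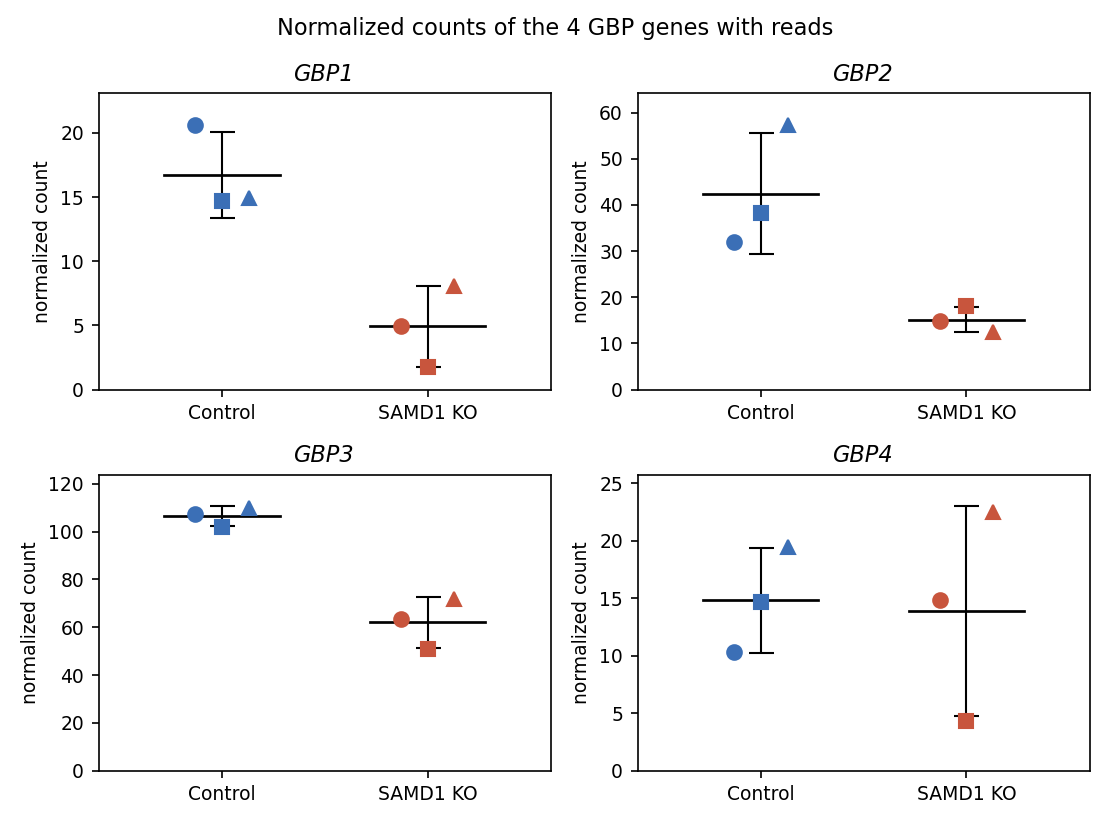
Normalized counts (y axis, each from 0) of *GBP1*, *GBP2*, *GBP3* and *GBP4* in Control (blue) and SAMD1 KO (red). Circles, squares and triangles are replicates or clones 1, 2 and 3, the line is the mean and the bar the SD of 3 libraries. For *GBP1*, *GBP2* and *GBP3* each knockout clone is below each Control library, and for *GBP4* the groups overlap.

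Thus 4 of the 7 genes passed the filter on low values, a mean of at least 10 normalized counts. Of these 4, 3 had a log2 difference below -0.5, and no p is given for them. Over all 12773 genes tested, 2.08% were called lower and 5.77% higher, 7.85% in all. These calls also need a limma p under 0.01, so the 3 of 4 and these shares are on unlike measures. With an adjusted p under 0.05 in its place, 1.87% of all genes tested were lower and 5.34% higher. The clones were all below the Control libraries for the same 3 genes, and for 18.6% of all genes tested. As the family was chosen on this contrast, nothing is read from these counts.

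Per kb of exonic length, the order of the levels in Control was *GBP3* (24.8 ± 0.984 normalized counts per kb, SD, n = 3), *GBP2* (5.88 ± 1.82), *GBP1* (2.74 ± 0.550) and *GBP4* (2.41 ± 0.748). *GBP1* and *GBP4*, the neighbours at the low end of this order, differed by less than their spread. Exonic length joins the exons of all annotated transcripts, 6.103 kb for *GBP1* and 7.223 kb for *GBP2*. Their main transcripts have 2883 and 4088 bases, while that of *GBP4* has the full 6141 bases. The levels per kb, and which genes are within their spread, depend on this length. In SAMD1 KO the levels were 14.5 ± 2.46 for *GBP3*, 2.26 ± 1.49 for *GBP4*, 2.10 ± 0.387 for *GBP2* and 0.807 ± 0.522 for *GBP1*, and *GBP4* and *GBP2* were within their spread. The Control levels per kb were at percentiles 34.8, 26.7, 22.5 and 21.8 of all genes with reads for *GBP3*, *GBP2*, *GBP1* and *GBP4*. The atlastins *ATL2* and *ATL3* were far higher, with 797 and 686 normalized counts per kb in Control.

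The normalized counts of the whole family summed to 180.4 ± 18.3 in Control and to 96.1 ± 20.0 in SAMD1 KO (SD, n = 3 each). *GBP3* made up between 54.5% and 67.8% of this sum in each library.

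Reads of the family can be split or lost between near-identical copies. Of the 50-base windows along the main *GBP1* transcript, 398 of 2834 were identical to a window of another family gene or pseudogene, mostly the pseudogene *GBP1P1*. The share was 4.18% for *GBP3*, 1.66% for *GBP2*, 0.312% for *GBP4* and 24.7% for *GBP7*, which shares its windows mostly with *GBP2*. With 75-base windows it was 5.52% for *GBP1*, 1.08% for *GBP3*, 0.249% for *GBP2* and 23.3% for *GBP7*. The windows were compared with every annotated transcript of the other genes, and *GBP7* and *GBP2* overlap on the same strand. How much of their sharing comes from this overlap rather than from copies was not separated. The levels of *GBP1* and *GBP2* and the 0 reads of *GBP7* are to that extent uncertain.

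The 3 clones did not rank alike. Relative to the mean of the Control libraries on the log2 scale, *GBP1* was at -1.56, -2.68 and -0.95 in clones 1, 2 and 3. *GBP3* followed the same order, at -0.74, -1.05 and -0.56. *GBP2* had the opposite one, at -1.42, -1.14 and -1.64, so that clone 3 was the lowest for *GBP2* and the highest for *GBP1* and *GBP3*. *GBP4* was at 0.04, -1.53 and 0.61.

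The spread between libraries was larger than usual for several of these genes. The SD of the log2 values among the clones was 0.88 for *GBP1*, 0.25 for *GBP2*, 0.25 for *GBP3* and 1.11 for *GBP4*, where the median gene tested had 0.15. Among the Control libraries it was 0.26, 0.42, 0.06 and 0.43 in the same order, with a median of 0.06. These 4 genes have few reads, and the part of counting error in this spread was not tested.

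**Figure D2:**
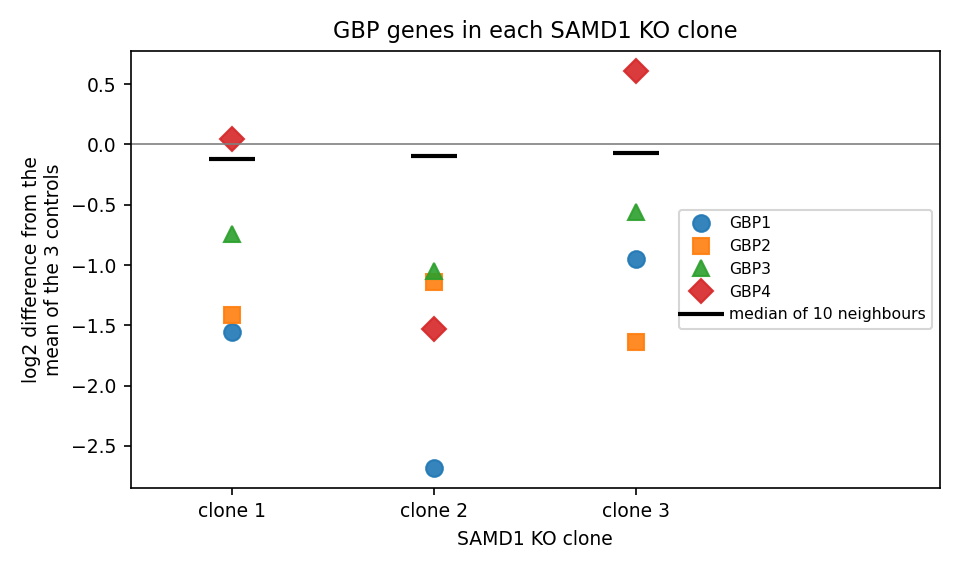
Log2 difference of each SAMD1 KO clone (x axis) from the mean of the 3 Control libraries (y axis) for *GBP1*, *GBP2*, *GBP3* and *GBP4*, with a black bar for the median of the 10 neighbouring genes tested. *GBP1*, *GBP2* and *GBP3* are below 0 in each clone, *GBP4* is below 0 in clone 2 and above it in clones 1 and 3, and the bars of the neighbours lie between -0.12 and -0.07.

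The genes around the cluster were examined to see how far the lower level reached. GENCODE 44 has 13 other protein-coding genes within 2 Mb of the cluster, of which 11 are in the table and 10 passed the filter on low values. None of the 10 was called in either direction, where 7.85% of all genes tested were, so a count of 0 is near that share. Their median log2 fold change was -0.09, with a range of -0.29 to 0.33. At an unadjusted limma p below 0.05, 3 of the 10 were lower and 1 higher. Of all 12773 genes tested, 1724 were lower and 2059 higher at this p. All clones were below all Control libraries for 3 of the 10, compared with 18.6% of all genes tested. They were all above for 1, compared with 19.2%. *RBMXL1*, the neighbour next to *GBP3* and a retrogene of an RNA-binding protein, was at 1177, 1182 and 1247 normalized counts in Control and at 1130, 924 and 904 in SAMD1 KO. All its clones were below its Control libraries, with a log2 fold change of -0.29 (limma adjusted p = 0.0938). *LRRC8B*, a subunit of volume-regulated anion channels and the neighbour beyond *GBP6*, was at 989, 1075 and 1076 in Control and at 790, 974.5 and 1222 in SAMD1 KO. Its groups overlapped (log2 fold change -0.09, limma adjusted p = 0.718).

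Of the other neighbours, named after their values were seen, the transcription factor gene *GTF2B* was lower by a small amount (log2 fold change -0.29, limma adjusted p = 0.0423). *LMO4*, a LIM-domain transcription cofactor at the far edge of the region, was higher (0.33, limma adjusted p = 0.0146). Both are within the fold threshold. The median of the neighbours was -0.12, -0.10 and -0.07 in clones 1, 2 and 3.

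**Figure D3:**
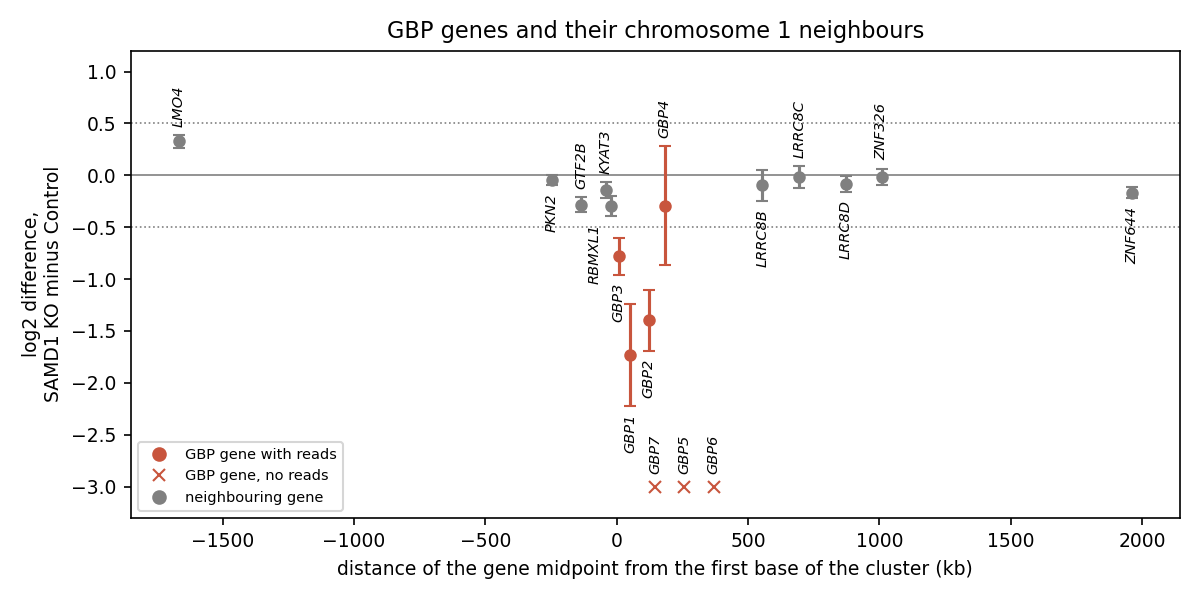
Fitted log2 difference between SAMD1 KO and Control (y axis, bars are SE) against the distance of each gene's midpoint from the first base of the GBP cluster in kb (x axis). Red points are GBP genes with reads, grey points the 10 neighbouring genes tested, dotted lines the fold threshold, and crosses mark the positions of *GBP5*, *GBP6* and *GBP7*, which have no reads and no value on the y axis. *GBP1*, *GBP2* and *GBP3* lie below the threshold and all 10 neighbours between -0.29 and 0.33.

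The interferon ligands that could induce GBPs were next examined. Of 8 ligand genes, 5 had no reads in any library, among them *IFNG*, *IFNB1* and *IFNL1*. *IFNE* had 0, 0 and 0 reads in Control and 3, 0 and 5 reads in SAMD1 KO, and *IFNW1* and *IFNL3* had at most 1 read in a library. None passed the filter on low values.

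The receptors and JAK-STAT components were expressed in both groups. Of 21 genes, 19 were tested and none was called in either direction, with a median log2 fold change of 0.01. Of all genes tested, 7.85% were called, so a count of 0 in a list of this size is near that share. At an unadjusted limma p below 0.05, 4 were higher and 1 lower, beside 2059 higher and 1724 lower of all 12773 genes tested.

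*JAK1*, the kinase shared by the interferon receptors, was at 5177, 5238 and 5468 in Control and at 6742, 6797 and 6338 in SAMD1 KO, a log2 fold change of 0.32 (limma adjusted p = 0.00926) that does not reach the fold threshold. The receptor chains *IFNGR1* (0.24, adjusted p = 0.231), *IFNGR2* (0.01, adjusted p = 0.929), *IFNAR1* (-0.06, adjusted p = 0.537) and *IFNAR2* (0.34, adjusted p = 0.11) did not pass the limma test. The same was true for the kinase *JAK2* (0.13, limma adjusted p = 0.366) and for *STAT2* (0.12, limma adjusted p = 0.326), a factor of the type I interferon response.

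Among 12 IRF family genes, 10 were tested, none was called, and their median log2 fold change was 0.16. A count of 0 is near the 7.85% called of all genes tested. At an unadjusted limma p below 0.05, 1 was higher and 0 were lower, beside 2059 and 1724 of all 12773 genes tested. *IRF1*, the factor that drives many GBP genes, was at 618, 600 and 591 normalized counts in Control and at 732, 607 and 660 in SAMD1 KO, with overlapping groups (0.14, 95% interval -0.07 to 0.35, limma adjusted p = 0.344). *IRF9*, the DNA-binding part of the type I interferon complex, was low, at 14.1 ± 0.543 in Control and 17.4 ± 1.33 in SAMD1 KO (SD, n = 3 each). Its log2 fold change was 0.29 (limma adjusted p = 0.484).

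The target genes of interferons were examined next. Of 37 interferon-gamma response genes, 28 were tested, 2 (7.14%) were called lower and 1 (3.57%) higher, and the median log2 fold change was -0.03. Over all genes tested, 2.08% were lower and 5.77% higher. At an unadjusted limma p below 0.05, 5 of the 28 were lower and 2 higher, beside 1724 and 2059 of all 12773 genes tested. *CD274*, which encodes the immune checkpoint ligand PD-L1, was at 99.3 ± 11.0 normalized counts in Control and fell to 51.1 ± 10.3 (SD, n = 3 each, log2 fold change -0.96, limma adjusted p = 0.0221). *APOL1*, a trypanosome lytic factor, fell from 57.4 ± 14.1 to 24.3 ± 4.82 (-1.20, limma adjusted p = 0.0272). *HLA-F*, a nonclassical MHC class I gene, was at 51.5, 51.9 and 41.2 in Control and rose to 71.2, 77.8 and 101.6 (0.77, limma adjusted p = 0.0483). Calls were lost for *HLA-F* without any 1 library other than clone 1 (0.62 to 0.83), for *CD274* without Control 3 (-0.88) and for *APOL1* without Control 1 (-1.02) or Control 3 (-1.20).

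Of 38 type I interferon-stimulated genes, 30 were tested, 2 (6.67%) were called lower and none higher, with a median of -0.09. At an unadjusted limma p below 0.05, 7 were lower and 4 higher, beside 1724 and 2059 of all 12773 genes tested. *IFIT2*, which encodes an RNA-binding antiviral protein, was at 487, 417 and 470 normalized counts in Control and at 133, 79.5 and 116 in SAMD1 KO. All clones were far below the Control libraries, and the log2 fold change was -2.08 ± 0.20 (SE, n = 3 and 3, limma adjusted p = 0.00123). Its paralogs *IFIT1* (-0.23, limma adjusted p = 0.721) and *IFIT3* (-0.01, limma adjusted p = 0.974), named after their values were seen, did not pass the test. *EPSTI1*, a gene of epithelial-stromal interaction, was at 81.2, 76.3 and 67.6 in Control and at 18.8, 40.6 and 45.0 in SAMD1 KO (-1.18, limma adjusted p = 0.0598), and its call was lost without any 1 of the Control libraries (-1.25 to -1.12).

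Over the 4 lists of receptors, factors and target genes, 87 of 108 genes were tested, and 4 of them, or 4.60%, were called lower, while 2.08% of all genes tested were. Only 1, or 1.15%, was called higher, compared with 5.77% of all genes tested. The median log2 fold change was -0.01 in both sets. In 21 genes, or 24.1%, all clones were below all Control libraries, compared with 18.6% of all genes tested. These were 10 of 28 interferon-gamma response genes (35.7%), 8 of 30 type I genes (26.7%), 2 of 19 receptor and JAK-STAT genes and 1 of 10 IRF genes. All clones were above all Control libraries in 4, 4, 4 and 2 genes of these lists, and in 19.2% of all genes tested. The number called lower was 1 without Control 3, 2 without Control 1 and 8 without clone 3, and between 3 and 5 when 1 of the other libraries was left out. The number called higher was 0 without any 1 of the Control libraries, 3 without clone 1, and 1 without clone 2 or clone 3. That 1 gene was *ICAM1* without clone 2 and *SOCS3* without clone 3, not *HLA-F*.

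The calls were also counted by the motif in the promoter window. Of 277 tested genes other than GBPs with an ISRE in the window, 6 (2.17%) were called lower and 14 (5.05%) higher. The corresponding shares of the 10257 tested genes with any promoter window were 1.91% and 5.43%. Within the 4 interferon lists, 30 of 69 tested genes with a window had the element, and 2 of these 30 were called lower and 1 higher, and their median log2 fold change was -0.04. The GCGC motif was present for 8739 tested genes, of which 1.61% were called lower and 5.40% higher, and absent for 1518, of which 55 (3.62%) were lower and 85 higher.

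**Figure D4:**
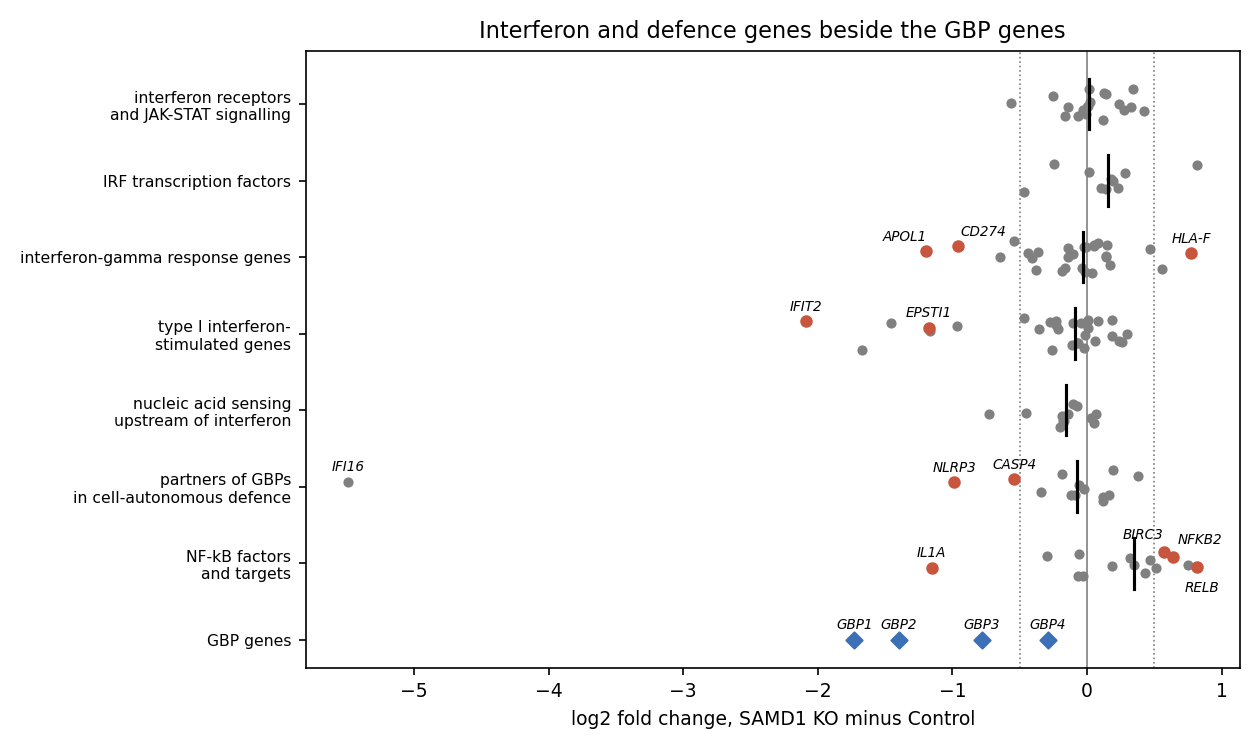
Log2 fold change between SAMD1 KO and Control (x axis) of the tested genes of 7 lists (y axis, with random vertical offsets), with black bars for list medians, red points for called genes and dotted lines for the fold threshold. Blue diamonds are the 4 GBP genes with reads, which are not tested. The receptor and IRF lists have no called gene, and *IFIT2* at -2.08 is the lowest of the called genes, while the grey point of *IFI16* at -5.49 did not pass the test.

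The proteins that work with GBPs in the defence of a cell were also considered. Of 19 such genes, 14 were tested, and 2 (14.3%) were called lower and none higher, with a median of -0.07, where 2.08% of all genes tested were lower. At an unadjusted limma p below 0.05, 2 were lower and 3 higher, beside 1724 and 2059 of all 12773 genes tested. *CASP4*, the intracellular sensor of lipopolysaccharide that acts on bacteria coated by GBPs, was at 1680, 1601 and 1704 normalized counts in Control and at 958, 1206 and 1289 in SAMD1 KO. The groups did not overlap (log2 fold change -0.54, limma adjusted p = 0.0223). *NLRP3*, an inflammasome sensor, fell from 264.6 ± 11.4 to 138.3 ± 47.8 (SD, n = 3 each, -0.99, limma adjusted p = 0.0372). The call of *CASP4* was lost without clone 1 (-0.41), and that of *NLRP3* without any 1 of the Control libraries or clone 2 (-1.02 to -0.96).

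*IFI16*, a DNA sensor named after its values were seen, was at 1414, 1432 and 1416 in Control and at 12.9, 0 and 2284 in SAMD1 KO. Clones 1 and 2 were almost without *IFI16* RNA, while clone 3 was above Control, and the log2 fold change of -5.49 did not pass the test (limma adjusted p = 0.181).

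Several GBPs are anchored to membranes by a prenyl group. All 5 prenylation enzymes were tested and none was called, with a median of -0.14, where 7.85% of all genes tested were called, near a count of 0. *PGGT1B*, the subunit of the geranylgeranyl transferase, named after its values were seen, was at 1214 ± 47.3 in Control and 870.5 ± 99.4 in SAMD1 KO (log2 fold change -0.48, limma adjusted p = 0.0195), short of the fold threshold.

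Among the atlastins and other large GTPases, 7 of 10 were tested, and 1 (14.3%) was called higher and none lower. Of all genes tested, 5.77% were called higher and 2.08% lower. *ATL1*, the neuronal atlastin, was at 64.1, 65.6 and 81.3 normalized counts in Control and at 132.5, 115.8 and 97.1 in SAMD1 KO. All clones were above all Control libraries (log2 fold change 0.70, limma adjusted p = 0.0461), but the call was lost without Control 1 or 2 or clone 1 or 2 (0.59 to 0.69). *ATL2* (-0.14, limma adjusted p = 0.142) and *ATL3* (0.00, limma adjusted p = 0.995) were not called. The interferon-induced GTPase gene *MX1*, named after its values were seen, was at 611.5 ± 17.8 and 570.9 ± 102 (-0.11, limma adjusted p = 0.606).

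NF-kB also acts on GBP genes. Of 17 NF-kB factors and targets, 15 were tested, 3 were called higher (20%) and 1 lower (6.67%), beside 5.77% and 2.08% of all genes tested, and the median log2 fold change was 0.35. *NFKB2* and *RELB*, which encode the factors of the noncanonical pathway, rose from 5661 ± 143 to 8831 ± 924 normalized counts (0.64, limma adjusted p = 0.00388) and from 1007 ± 41.4 to 1824 ± 520 (0.82, limma adjusted p = 0.0286). *BIRC3*, an inhibitor of apoptosis, was at 1863 ± 99.9 and 2822 ± 709 (0.57, limma adjusted p = 0.0639). *IL1A*, an alarmin cytokine, was at 503.3 ± 33.4 and 245.1 ± 125 (-1.16, limma adjusted p = 0.0584). All SDs are over n = 3 libraries in each group. The call of *BIRC3* was lost without any 1 library other than clone 2 (0.38 to 0.61), that of *IL1A* without any 1 library other than clone 3 (-1.21 to -0.82), and that of *RELB* without Control 3 (0.79).

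To find genes with a similar profile, the log2 values of 11452 genes with a mean of at least 50 were compared with the mean profile of *GBP1*, *GBP2* and *GBP3* over the 6 libraries. Among the 5 smallest root mean square distances were those of *B3GNT3* (0.0872), which extends glycans with N-acetylglucosamine, *ST3GAL1* (0.170), a sialyltransferase, *BEST3* (0.187), a bestrophin of the chloride channel family, and *FRMD4A* (0.202), a scaffold of cell polarity. *B3GNT3* was at 930, 958 and 962 normalized counts in Control and at 371, 318 and 442 in SAMD1 KO. Clone 2 was its lowest clone, as in the mean profile it was chosen by and as for *GBP1* and *GBP3*, but not *GBP2*. These genes are on chromosomes 19, 8, 12 and 10, none on chromosome 1, and they were chosen for their values, so no test is given.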

How the data were processed

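RNA was extracted from PaTu8988t Control and SAMD1 KO cells, and libraries were prepared with the TruSeq Stranded mRNA kit. The authors aligned the reads with RNA-Star, counted them with featureCounts on hg38 and normalized them with DESeq2, per the study's methods and the submitters' processing notes. The strand setting of the counting is not given in the sources used here. The deposited values, used as a signal, are gene counts divided by a size factor of each library (normalized counts). A separate deposited table of the authors' own fold changes and p-values was not used.

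The normalized counts were multiplied back to whole reads (3871 of 20347 genes have no reads). Genes with a mean of at least 10 were tested on log2(normalized count + 1) with limma 3.58.1 (R 4.3.3, trend, two-sided, Benjamini-Hochberg adjustment over 12773 genes), and fold changes of low genes are understated on this scale. As in the study, calls needed a log2 fold change larger than 0.5 and a p, not adjusted, under 0.01, which gave 737 higher and 266 lower genes. With an adjusted p below 0.05 in its place, 682 were higher and 239 lower. The smallest p of an exact permutation test in this design is 0.1. In simulated data, limma recovered 200 of 200 genes changed by 2-fold among 12732 genes and called 11 unchanged genes. The changed genes had a mean of at least 50, and the same spread beyond counting error was set for every gene. Recovery of genes with fewer reads or a larger spread, such as *GBP1*, was therefore not tested.

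Whether the Control replicates were separate cultures is not given in the sources used here, and p-values measure the spread between these libraries. The members and gene lists were chosen with earlier results of these data known. Named were the GBP genes, called genes of the lists (up to 6 each by p), 13 interferon and atlastin genes, the nearest neighbours and the 5 nearest profiles, of which some are not reported here. Of the symbols, 19546 were matched to GENCODE 44 directly and 202 by an older symbol. *RIGI* was found as *DDX58*. Alternatives were edgeR 4.0.16 and DESeq2 1.42.0 on recovered reads, 75th percentile scaling, pseudocounts of 0.1 and 10, no filter or a mean of at least 50, a replicate block, and leaving out each library.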

Additional observations from a re-analysis of the deposited data

How the results depend on the processing

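The log2 differences of *GBP1*, *GBP2* and *GBP3* were below 0 in every setting in which they had a value, and *GBP4* in 12 of 13. Leaving out 1 library gave -2.12 to -1.25 for *GBP1*, -1.58 to -1.17 for *GBP2*, -0.89 to -0.65 for *GBP3* and -0.74 to 0.33 for *GBP4*, and the other settings gave *GBP1* between -1.97 and -0.86, the latter with a pseudocount of 10. With a mean of at least 50, *GBP1*, *GBP2* and *GBP4* have no value. The interferon genes called higher, 1 as reported, were 2 with 75th percentile scaling, 0 with the replicate block and 0 to 3 when 1 library was left out. Those called lower, 4 as reported, were 2 with a mean of at least 50 and 1 to 8 when 1 library was left out, while *IFIT2* was called in each of 14 settings. Of the named genes outside the GBP family that were called, none turned its direction, and 44 of their values under an alternative missed the call. With the replicate block, *HLA-F* (0.77), *ATL1* (0.70) and *EPSTI1* (-1.18) missed it, with 75th percentile scaling *EPSTI1* (-1.15) and *IL1A* (-1.13), with edgeR *IL1A* (-1.03), and with a mean of at least 50 *EPSTI1* (-1.18) and *BIRC3* (0.57). No neighbour of the cluster was called in any setting. Over all genes, leaving out 1 library gave 568 to 862 higher and 180 to 370 lower, and the other settings 629 to 830 and 222 to 319, with 779 and 247 by edgeR and 830 and 265 by DESeq2 on the recovered reads.

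Replicate numbers gave at most a weak pairing of Control libraries and clones. The correlations of the deviations of same-numbered libraries were 0.039, 0.134 and 0.032 over 12773 genes. Each clone correlated best with its same-numbered Control library, but Control 3 correlated slightly better with clone 1 (0.036) than with clone 3. With the replicate number as a block, 725 genes were called higher and 259 lower. Few reads limit the members: *GBP1* rests on 2 to 18 reads in a library.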
